A study of Mus musculus with 14 samples.

Results

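The baseline transcriptome of retinal veins with normal eye pressure was described from the 5 control libraries among the 14 bulk RNA libraries of the study. They were chosen by their label, as the normotensive control veins, and no measured value entered the choice. Each library came from the veins of 1 DBA/2J-Gpnmb+/SjJ mouse aged 9 months, with 4 major veins and their main branches pooled. This strain carries a working Gpnmb allele on the DBA/2J background and serves as the normotensive control of the glaucoma strain DBA/2J. All 5 mice had received 0.33 mg of sodium fluorescein per g of body weight, 5 minutes before death, so that the vessels could be dissected with fine forceps under fluorescence. The control group was described on its own, and no library of DBA/2J entered any value. With 1 group there was no treated arm, and the spread between the 5 libraries mixes mouse, dissection and library preparation. The labels give no sex or litter for the mice.

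Retinal veins collect blood from the capillary bed and leave the eye at the optic nerve head. Their wall is a sheet of endothelial cells, sealed by tight junctions, on a basement membrane with pericytes and a thin layer of smooth muscle. Endfeet of Müller glia and astrocytes cover the outside, and together these layers form the inner blood-retinal barrier. Venous endothelium is known as the site where leukocytes leave the blood, with adhesion molecules, selectins and chemokine-binding receptors. Lens fibre cells are packed with crystallins, and rods, the photoreceptors for dim light, with the proteins of phototransduction. Neither is a part of the vessel wall.

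The deposited value of a gene was its estimated read count, scaled by 1 factor per library. Values for the 5 libraries are listed from control sample 1 to control sample 5. For levels of different genes, each value was divided by transcript length and expressed in parts per 1000000 (ppm) of all annotated genes, called the length-scaled level. Libraries summed to between 18165573 and 22159797 scaled counts, from an estimated 17774394 to 23437512 reads. Between 26087 and 29431 genes were detected at a value of 1 or more, and 21686 genes, 15757 of them protein-coding, were detected in all 5 libraries. A count of 0 allowed a level of up to 0.128 to 0.169 counts per 1000000 (CPM), which covers counting error only.

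Control sample 3 stood apart from the other libraries. On the first principal component, which held 48.2% of the variance, it lay at -55.7 and the other samples between -11.002 and 34.1. On the second component, which held 24.8%, sample 4 lay at -34.9 and the others between -17.4 and 25.3. Sample 4 also had the most genes detected, 29431 against 26087 to 26840, from the fewest estimated reads. Across 11770 protein-coding genes, the values of sample 3 fell by 0.167 log2 units for each doubling of transcript length, relative to the mean of the 5 libraries. The slope was 0.0134 to 0.0757 in the others. Pearson correlations across these genes, which are not independent replicates, were 0.883 to 0.926 for pairs with sample 3 and 0.919 to 0.954 for the other pairs. Values without sample 3 are given for the pan-endothelial, arterial and oligodendrocyte lists and for some measures of spread. For the other lists they are not given. The part that the length slope plays in the values of sample 3 was not tested.

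Lens crystallins, rod genes and globins headed the list of abundant transcripts. Of the 20 genes with the highest deposited values, predicted genes and pseudogenes left out, 6 were lens genes, 5 were rod genes and 3 were globins. Cryaa (alpha-A crystallin, a chaperone of lens fibres) ranked first with 1200610.0, 567108, 676143, 873477 and 557907 scaled counts, a mean of 775048 ± 269704 (SD, n = 5). Crybb2, a beta crystallin, followed with 844245, 378691, 696591, 947594 and 335851. Cryba1, another beta crystallin, held 598027, 264213, 344075, 548215 and 232957. For these 3 crystallins, samples 2 and 5 were the lowest libraries and sample 1 or 4 the highest. Sag, the rod arrestin that ends the light response, had 161947, 197804, 201437, 105970.0 and 177193. Sample 4 was the lowest library for Sag, while it was among the 2 highest for the crystallins. Genes of other kinds among these 20 included Ubb (ubiquitin), Malat1 (a nuclear non-coding RNA), Cst3 (cystatin C), mt-Co3 (a mitochondrial cytochrome oxidase subunit) and Ptgds (prostaglandin D synthase). Malat1 varied more than the other 4 just named, at 44443, 55839, 158938, 191565 and 92536 scaled counts, with the highest value in sample 4.

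**Figure D1:**
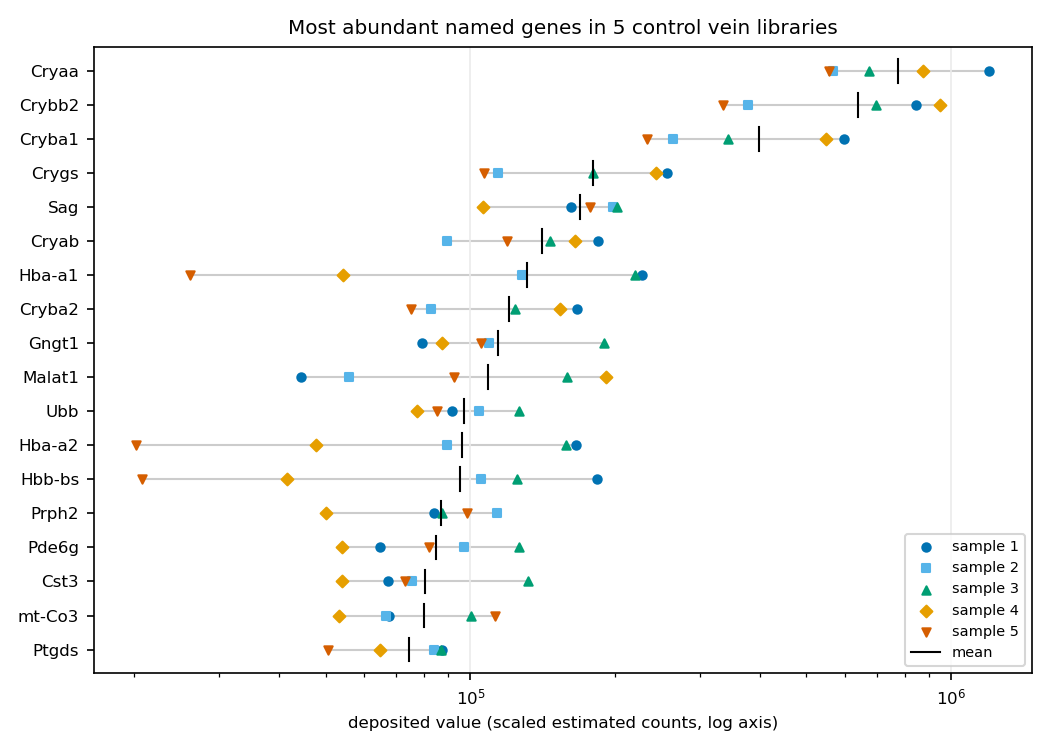
Deposited values (scaled estimated counts, log axis) of 18 of the 20 most abundant named genes, 1 row per gene, with 1 symbol per control library and a black bar at the mean. Cryaa, Crybb2 and Cryba1 lie farthest to the right on average, and the globins Hba-a1, Hba-a2 and Hbb-bs have the widest ranges, with samples 4 and 5 at the low end.

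The 10 most abundant genes held 15.4% ± 3.45 of a library's deposited total (SD, n = 5), with 11.97% in sample 5 and 19.3% in sample 4 as the extremes. The 100 most abundant genes held 32.8% ± 2.38, with each library ranked on its own and predicted genes kept in. Among the 100 named genes with the highest mean were 11 rod genes, 9 lens genes, 7 mitochondrially encoded genes and 3 Müller glial genes. That ranking left out predicted genes and pseudogenes, and it had no member of the endothelial, pericyte or smooth muscle lists. The 25 cell type lists together had 287 genes and covered 20.8% ± 3.40 of the deposited total, so most of each library fell on genes of no list. Within the lists, lens genes took 11.9% ± 4.18, neuronal genes 5.53% ± 1.27, blood genes 1.66% ± 1.01, glial genes 0.728% ± 0.115, pigmented cell genes 0.540% ± 0.116 and vessel wall genes 0.426% ± 0.0436 (SD, n = 5 each). The vessel wall share was the sum of 79 genes from the endothelial, mural and fibroblast lists and lay between 0.388% and 0.495%. The lists differ in number and abundance of genes, so these shares are not shares of cells. Endothelial and mural markers were thus present, but took a small part of the total, and arterial markers were present beside the venous ones. In bulk samples, fewer cells of a type and less RNA per cell cannot be told apart.

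**Figure D2:**
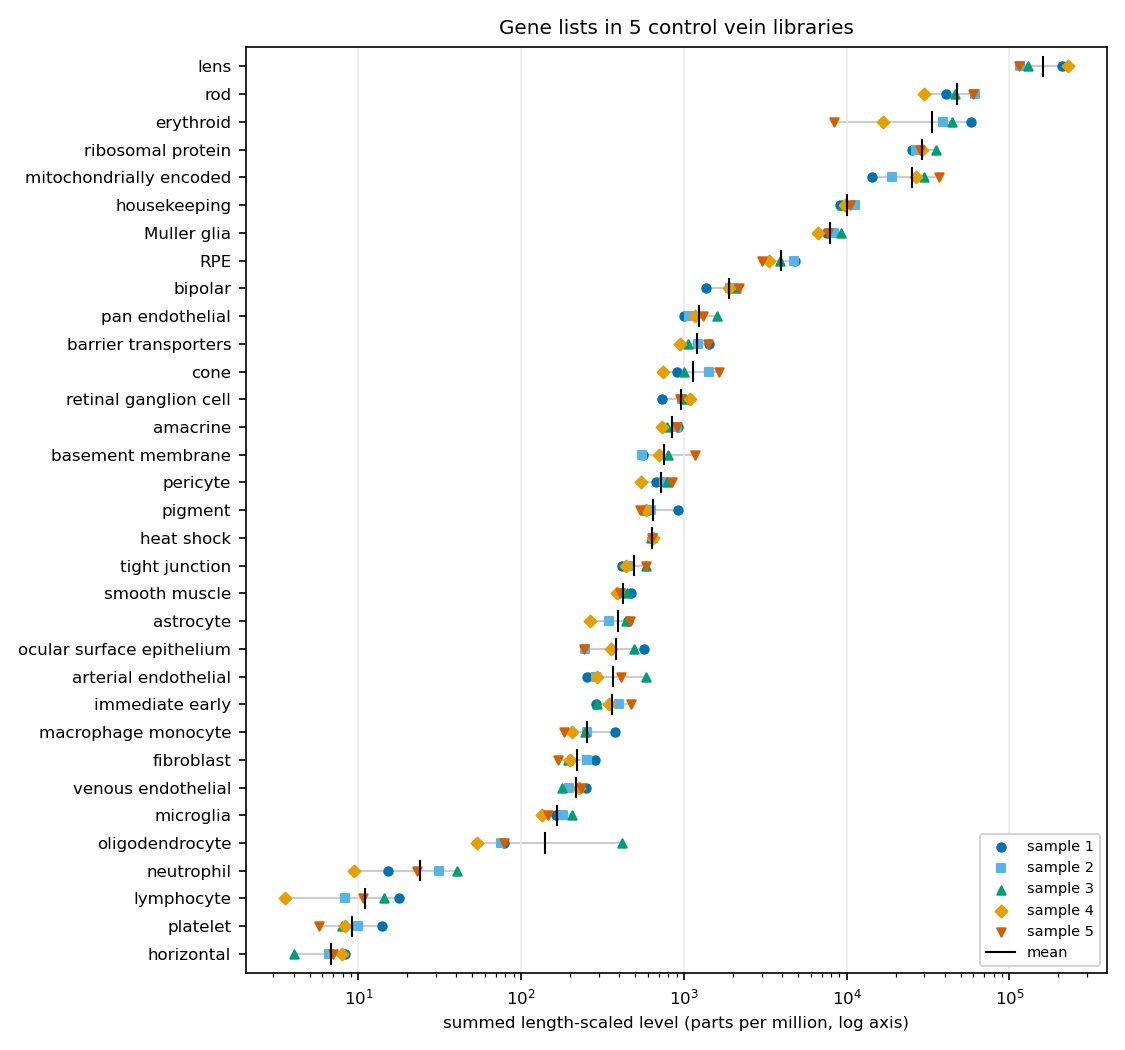
Summed length-scaled level (parts per 1000000, log axis) of each of 33 gene lists in the 5 control libraries, ordered by the mean (black bar). The lens list lies near 159781 ppm and the pan-endothelial list near 1231 ppm, and the erythroid, oligodendrocyte, neutrophil and lymphocyte lists have the widest spread.

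Endothelial identity was present in every library. All 20 genes of the pan-endothelial list were detected in all 5 libraries, and their summed level was 1001, 1079.6, 1592, 1168 and 1313 ppm, a mean of 1231 ± 233 (SD, n = 5). Sample 3 was the highest and the other 4 averaged 1140.3 ppm. Cldn5 (ENSMUSG00000041378.2), the claudin that seals endothelial tight junctions, gave 30.98% of the summed level. The gene lies on chromosome 16 from 18776847 to 18778262 on the forward strand (GRCm38). Cldn5 had 7201, 6917, 13562, 7515 and 8643 scaled counts and ranked 214th among all symbols, with sample 3 well above the other 4 libraries, which lay close together. Ramp2, the partner of the adrenomedullin receptor, had 2049, 1974, 3357, 1953 and 2099. Egfl7, a secreted factor of vascular development, had 1896, 1994, 4331, 2524 and 1762. Vwf, von Willebrand factor stored by endothelium for clotting, had 1840.4, 2140.5, 7285, 2795 and 1805. In each of these 4 genes sample 3 was the highest. Pecam1, an adhesion molecule of endothelial contacts, had 2133, 1359, 1829, 1070.1 and 1836, highest in sample 1, and Kdr, the main receptor for vascular endothelial growth factor, had 1938, 1495, 1464, 1607 and 2325, highest in sample 5. Cdh5, the cadherin of endothelial junctions, had the second lowest level of the 20 genes at 6.97 ± 2.30 ppm and Erg, an endothelial transcription factor, the lowest at 2.16 ± 0.760 ppm. Plvap, which marks fenestrated endothelium and is low in barrier vessels, had 749.9, 668, 1154, 847 and 693 scaled counts in the 5 libraries.

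Genes that mark venous endothelium were detected, but the selectins and the apelin receptor were at or near 0. Of 12 genes on the venous list, 9 were detected in all 5 libraries, and the summed level was 217 ± 29.02 ppm (SD, n = 5). Vcam1, an adhesion molecule for leukocytes, stood at 42.7, 38.3, 19.6, 32.97 and 55.8 ppm. It was lowest in sample 3. Slc38a5, a glutamine transporter, had 34.3, 23.3, 43.8, 31.7 and 22.02 ppm. Ackr1, a chemokine-binding receptor of venules, had 301, 534, 761, 682 and 473 scaled counts, lowest in sample 1. The gene (ENSMUSG00000037872.5) lies on chromosome 1 from 173331886 to 173333750 on the reverse strand. Nr2f2, the transcription factor that maintains vein identity, had 377, 369, 542, 691 and 349.7 scaled counts, with samples 3 and 4 above the other 3. Icam1, a second leukocyte adhesion molecule, had 1119.6, 439.6, 386, 516 and 586, and Ephb4, the venous ephrin receptor, had 778, 819.8, 911, 452 and 637. Selp (P-selectin) was at 0, 0.559, 0, 0 and 2.82 and Sele (E-selectin) at 17.7, 13.7, 0, 0 and 13.9 scaled counts. Aplnr, the apelin receptor, was at 0 in 4 libraries and at 13.9 in sample 3. All 3 were thus at 0 in at least 2 libraries, where the depth allows only the limit given above.

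Markers of arterial endothelium were detected in the same libraries. The arterial list summed to 253, 286, 580.3, 294 and 410.2 ppm, and 12 of its 13 genes were detected in all 5 libraries. Mgp (matrix Gla protein, an inhibitor of calcification) made up 76.9% of that level, with 1936, 1758, 6053, 2017 and 2649.9 scaled counts and the highest value in sample 3. Without sample 3 the list averaged 311 ppm. Sox17, an endothelial transcription factor of arteries, had 929, 1185, 1164, 932 and 1138 scaled counts and varied little between libraries. Gja4, a gap junction protein of arterial endothelium, reached 10.96 ± 3.11 ppm and Jag1, a Notch ligand, 7.41 ± 2.56 ppm. Gja5, another arterial gap junction protein, reached 0.667 ± 0.610 ppm, the Notch ligand Dll4 0.965 ± 0.392 ppm and the semaphorin Sema3g 0.141 ± 0.158 ppm. The venous sum over the arterial sum was 0.990, 0.687, 0.306, 0.774 and 0.565, below 1 in each library. Without Mgp, a choice made after the values were seen, the arterial list held 84.2 ± 13.1 ppm, less than the venous sum. The order of the 2 sums thus turned on Mgp, and the lists hold different numbers of genes.

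**Figure D3:**
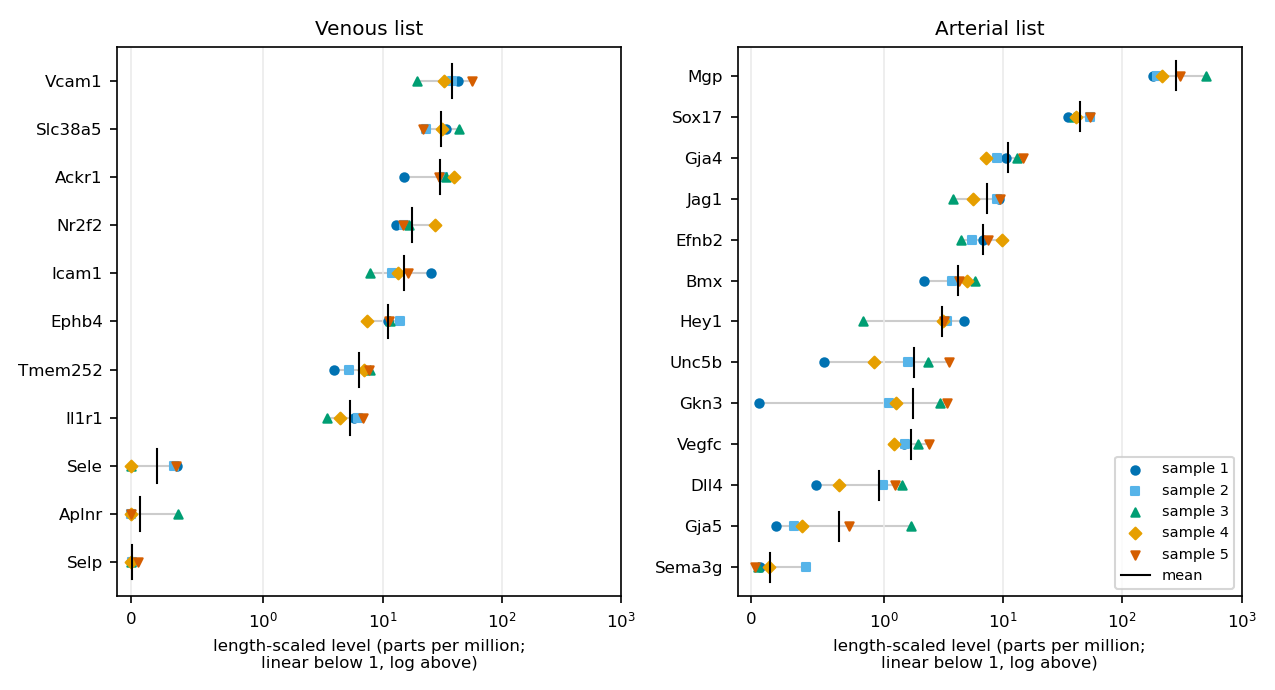
Length-scaled levels (parts per 1000000, linear below 1 and log above) of 11 venous and 13 arterial list genes, 1 symbol per control library and a black bar at the mean. Selp, Aplnr and Sele lie at or near 0 in the venous panel, and Mgp stands far to the right of the other arterial genes.

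Barrier transporters were more abundant in sum than the venous or arterial genes. The 14 transporter genes were all detected in each library and summed to 1209 ± 211 ppm (SD, n = 5), or 734 ppm when the longest transcript set the length. Slc2a1, which carries glucose across the barrier, had 4155, 3692, 3660.5, 2552 and 3612 scaled counts. Slc3a2, the heavy chain of amino acid transporters, had 3878, 3397, 5068, 2540.3 and 4030.5. Slc16a1, a carrier of lactate and other monocarboxylates that the pigment epithelium and neurons use too, had 14524, 9297, 6873, 6114 and 10031. Slco1a4, an organic anion transporter of brain and retinal endothelium, had 9384, 3511, 2527, 3677 and 4003, with sample 1 far above the other 4. Mfsd2a, which carries lysolipids and restrains transcytosis, had 299, 147, 220.4, 191 and 269. Abcb1a, the efflux pump P-glycoprotein, had 698, 485, 940.2, 739 and 534. The tight junction list, which shares Cldn5 with the pan-endothelial list, summed to 494 ± 80.8 ppm, of which Cldn5 gave 77.1%. Ocln (occludin) had 1009.9, 487, 439, 359 and 836 scaled counts and Jam2 (a junctional adhesion molecule) 1018, 819, 925, 619.5 and 1344. In Ocln, samples 1 and 5 were the highest.

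Most genes of the mural cell and matrix lists were detected, although bulk values do not tell which cells made these transcripts. The pericyte list reached 721 ± 115 ppm and the smooth muscle list 424 ± 33.6 ppm (SD, n = 5 each), with 11 of 12 genes of each list detected in all 5 libraries. Vtn, vitronectin, which photoreceptors express as well, supplied 64.9% of the pericyte level, and without it the list held 253 ± 68.1 ppm. Rgs5, a regulator of G protein signalling typical of pericytes, had 3298, 1985, 5046, 2786 and 3995 scaled counts. Pdgfrb, the receptor that recruits pericytes, had 1566, 765, 1147, 945 and 977. Higd1b had 223, 138, 828, 309 and 266, with sample 3 above all others, and Cox4i2, an oxidase subunit, reached 53.7 ± 15.1 ppm. Acta2, smooth muscle actin, had 6016, 3747, 4083, 3772 and 3186 scaled counts, the highest in sample 1, and gave 42.6% of the smooth muscle level. Tagln had 1090.2, 971, 1651, 733 and 1294, Myl9, a myosin light chain, 1295, 953, 2115, 1142 and 1019, and Tpm2, a tropomyosin, 1446, 1252, 2424, 1158 and 1010.3. Myh11, the smooth muscle myosin heavy chain, was lower at 3.48 ± 0.678 ppm. The fibroblast list reached 219.7 ± 48.4 ppm, led by Slc6a13 (a GABA and taurine transporter) at 70.2 ± 20.9 ppm and Dcn (decorin) at 56.1 ± 13.9 ppm, followed by Fbln1 at 32.4 ± 13.3 ppm and Islr at 28.3 ± 3.50 ppm. Col1a1, a chain of fibrillar collagen, stood at 9.41 ± 3.38 scaled counts. The basement membrane list reached 757 ± 255 ppm, of which Sparc, a collagen-binding matrix protein, gave 79.5%. Sparc had 9186, 7904, 16723, 11297 and 18795 scaled counts, highest in samples 3 and 5. Fn1 (fibronectin) had 3146, 2335, 4406, 3173 and 3149, Agrn (agrin) 2621, 3379, 5521, 4295 and 3439 and Col18a1 3949.7, 2374, 1511, 1519.8 and 998, the last with sample 1 highest. Nid1, a linker of laminin and collagen, was 3226 in sample 5 against 484 to 952 in the others.

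Glial genes exceeded the endothelial genes in summed level. The Müller glia list reached 7538, 8326, 9253, 6617 and 7681 ppm, and its sum was 5.67 to 7.71 times the pan-endothelial sum. Apoe, a lipid carrier that glia and macrophages secrete, supplied 50.9% of it, with 49981, 49338, 88765, 43014 and 38227 scaled counts and sample 3 apart from the rest. Without Apoe the list held 3870.3 ± 484 ppm. Clu (clusterin) had 24679, 19490.0, 24173, 15163 and 20359 scaled counts, Rlbp1 (the retinoid carrier of Müller glia and pigment epithelium) 11783, 11852, 9524, 8004 and 7831 and Glul (glutamine synthetase) 4811, 5474, 9519, 4112 and 6436. Aqp4, the water channel of endfeet on vessels, had 541, 377, 324, 599 and 1144, with sample 5 the highest. The astrocyte list reached 393 ± 85.2 ppm. Its most abundant gene by level was Gja1, a gap junction protein that pigment epithelium and mural cells express too, at 201 ± 75.5 ppm, but that level came from a short median transcript length. With the longest transcript it was 25.5 ppm and Gfap came first. Gfap, the intermediate filament of retinal astrocytes, had 3082, 3901, 8489.9, 2442 and 5146 scaled counts, S100b, a calcium-binding protein of astrocytes, 814, 1032, 3159, 818 and 1521, and Agt (angiotensinogen) 262, 283, 455, 261 and 495. Sample 3 was the highest for Gfap and S100b. Pax2, a transcription factor of optic nerve head and retinal astrocytes, stood at 10.2, 10.2, 14.6, 4.09 and 27.8.

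The microglia and macrophage sums were near that of the venous list, and those of neutrophils, lymphocytes and platelets were lower. The microglia list reached 166 ± 28.2 ppm, with 13 of 14 genes detected in all libraries. Among its leading genes were Tyrobp (a signalling adaptor) at 29.01 ± 7.94 ppm, C1qb at 24.3 ± 8.25 ppm and C1qa at 22.7 ± 6.64 ppm, both subunits of complement component C1q. P2ry12, the receptor that marks resting microglia, had 44.99, 73.7, 46.2, 82.4 and 130.2 scaled counts. The macrophage and monocyte list reached 253 ± 75.7 ppm, of which Lyz2 (lysozyme) gave 77.5%. Lyz2 had 6992, 3831, 4863, 3033 and 2472 scaled counts, Cbr2 607, 316, 434, 300.0 and 258, Ms4a7 195, 92.1, 252, 123 and 153 and Cd14, a co-receptor for lipopolysaccharide, 178, 176, 225, 125 and 145. Without Lyz2 the list held 56.9 ± 9.27 ppm. The neutrophil list reached 23.7 ± 12.4 ppm, led by S100a9 (10.4 ± 9.14 ppm), S100a8 (5.85 ± 3.75 ppm), Mmp9 (3.00 ± 1.25 ppm) and Cxcr2 (1.68 ± 0.649 ppm). The lymphocyte list reached 10.9 ± 5.49 ppm, with 3 of 12 genes detected in all 5 libraries, and its B cell gene Cd79b was at 0 in sample 4. Its other leading genes were the T cell receptor gene Trac at 2.03 ± 1.36 ppm and Cd79a at 1.34 ± 0.369 ppm. The platelet list reached 9.17 ± 3.03 ppm, led by the chemokine Ppbp at 4.92 ± 2.45 ppm and the integrin Itga2b at 2.00 ± 0.335 ppm, with Itgb3 at 0.548 ± 0.373 ppm and Gp9 at 0.509 ± 0.653 ppm. Ptprc, the phosphatase carried by all leukocytes, had 87.7, 24.6, 28.4, 63.98 and 23.3 scaled counts. For comparison, the median level of the 17203 protein-coding genes detected in at least 3 libraries was 7.42 ppm.

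Red cell transcripts varied most among the abundant groups. The erythroid list reached 58383, 39228, 44072, 16775 and 8399 ppm, a mean of 33372 ± 20454 (SD, n = 5), and its share of the deposited total was 2.77%, 1.82%, 2.34%, 0.826% and 0.379%. Samples 1 to 3 were all above samples 4 and 5, and the highest library had 6.95 times the level of the lowest. Hba-a1 (ENSMUSG00000069919.7, chromosome 11 from 32283511 to 32284465 on the forward strand), an alpha globin gene, had 227547, 127760.0, 220310.0, 54293 and 26109.5 scaled counts. Hbb-bs, a beta globin gene, had 183183, 105152, 124988, 41501 and 20707. Hba-a2 had 165556, 89346, 157987, 47723 and 20181 and Hbb-bt 22640.3, 14586, 11971, 5333 and 2239. All 4 globin genes had their lowest value in sample 5. The copies of each globin are nearly identical, so the split between copies is uncertain. Alpha and beta globin kept close proportions, since Hba-a1 over Hbb-bs was 0.900 to 1.30 in level. Alas2, the first enzyme of red cell haem synthesis, was likewise higher in samples 1 to 3 than in samples 4 and 5, at 4243, 2602, 1994, 939 and 491. Slc4a1 (the band 3 anion exchanger of the red cell membrane) stood at 4.71, 5.13, 0, 0.504 and 0.

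Rod transcripts were the largest neuronal group. The rod list reached 40783, 61729, 46052, 29828 and 59403 ppm, a mean of 47559 ± 13263 (SD, n = 5), with all 16 genes detected in each library. With the longest transcript as length it was 30190 ppm, below the erythroid list. Besides Sag, the transducin subunit Gngt1 had 79454, 109403, 189786, 87352 and 105215 scaled counts and the phosphodiesterase subunit Pde6g 64841, 96727, 126066, 54018 and 81944, both highest in sample 3. Prph2 (peripherin, which shapes the disc rim) had 84124, 113390.0, 87270.3, 50114 and 98252. Sample 4 was the lowest in Sag, Pde6g and Prph2, but not in Gngt1, where sample 1 was. The cone list reached 1139.9 ± 369.7 ppm and the rod sum was 36.4 to 46.1 times the cone sum. Opn1sw, the short-wavelength cone opsin, had 6027, 3459.9, 5144, 2219 and 8244 scaled counts, Gnat2 (cone transducin) 2311, 2921, 1635, 979 and 2568, Pde6h 1576, 2699.5, 2863, 1579.5 and 2924 and Gngt2 953, 1430.4, 2077, 1125 and 1858. Sample 4 was the lowest in Opn1sw and Gnat2 and the second lowest in Pde6h and Gngt2.

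The bipolar, amacrine and ganglion cell lists had summed levels of the same order as the pan-endothelial list, and the horizontal cell list a far lower one. The bipolar cell list reached 1881 ± 315 ppm, led by Pcp2 (a G protein modulator) at 806 ± 189.6 ppm and Gng13 (a G protein subunit) at 634 ± 134 ppm. Trpm1, the transduction channel of ON bipolar cells, had 4761, 3912, 2799, 3978 and 4252 scaled counts and Cabp5, a calcium-binding protein, 1815, 2023, 2525, 2007 and 1734. The amacrine list reached 848 ± 86.5 ppm, of which Calb2 (calretinin, found in ganglion cells as well) gave 72.3%. Calb2 had 14428, 12072, 15521, 9970.4 and 10322 scaled counts, Gad1, the enzyme that makes GABA, 2436, 1379.8, 1019, 1534 and 2263, Slc6a9, a glycine transporter, 2339.8, 2238, 1324, 1033 and 2551, and the transcription factor Tfap2b 1069.5, 1246, 1941, 1416 and 1177. The ganglion cell list reached 954 ± 136 ppm, with all 16 genes detected in each library. Sncg (gamma synuclein) gave 53.2% of it with 5614, 5794, 10129, 7978 and 5535 scaled counts. Nefl, the light neurofilament of their axons, had 6785, 9143, 5402, 6366 and 6877, Tubb3 (a neuronal tubulin) 1255, 1396, 1347, 1024 and 1353 and Thy1 226, 388, 1154, 544 and 552. The horizontal cell list was the lowest on average, at 6.75 ± 1.66 ppm, with Calb1 at 4.29 ± 1.30 ppm, Lhx1 at 1.26 ± 0.408 ppm, Onecut2 at 0.610 ± 0.231 ppm and Onecut1 at 0.586 ± 0.418 ppm.

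Myelin genes were uneven. The oligodendrocyte list reached 78.1, 74.9, 419, 53.7 and 78.3 ppm, so that sample 3 alone set the mean of 141 ± 156 (SD, n = 5), which was 71.3 ppm without it. Of the 10 genes listed, 5 were detected in all libraries. Mbp (myelin basic protein) had 641, 401, 12590.5, 295 and 552 scaled counts and Mobp, a myelin protein of oligodendrocytes, 0.373, 7.10, 403, 2.81 and 11.8. Cnp, Mag and Ermn did not stand out in sample 3. Cnp, a myelin enzyme, had 829, 837, 874, 627 and 938 scaled counts, Mag, an adhesion molecule of myelin, 173, 200.3, 188, 93.3 and 175, and Ermn 1932, 1399, 1029, 1109 and 899. The mouse retina itself has no myelin, which begins behind the eye.

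The lens list was the largest of all in each library. It reached 211383, 115871, 129303, 228352 and 113996 ppm, a mean of 159781 ± 55493 (SD, n = 5), and took 15.6%, 8.35%, 10.3%, 17.04% and 8.07% of the deposited total. Of the 25 lens genes listed, 24 were analysed here, and each of them was detected in every library. Crystallins resemble each other, and the gamma genes in particular are near copies, so single members are uncertain. Crygs had 256142, 113847, 179672, 243150.0 and 106711 scaled counts, and like Cryaa and the beta crystallins it was lowest in samples 2 and 5. Of the 7 gamma crystallins analysed here, 5 were highest in sample 4, though Crygs was not. The whole lens list was highest in sample 4 too, and near copies are not separate observations. How often sample 4 is the highest library over all genes was not counted. Crygc had 3378, 1245, 2363, 7459.8 and 2028 and Crygb 1818, 744, 1722, 5619 and 1440.2 scaled counts, with sample 4 more than 2 times every other library. Lenep, a lens epithelial protein, had 1603, 343, 1614, 3479 and 598, also highest in sample 4. Mip, the lens water channel, took another order, at 2384, 846, 975, 1496 and 2292, with samples 1 and 5 highest. The lens sum was 5.18, 1.88, 2.81, 7.66 and 1.92 times the rod sum in the 5 libraries, so the 2 did not move in proportion.

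Genes that mark pigmented and surface tissues of the eye were detected too. The retinal pigment epithelium list reached 4775, 4709.5, 3863, 3306 and 3001 ppm, led by Ttr (transthyretin, a retinol and thyroxine carrier) with 50702, 43306, 55235, 34654 and 30404 scaled counts. Ttr gave 56.6% of the summed level, and without it the list held 1707 ± 515 ppm. Rpe65, the isomerase of the visual cycle, had 21871, 14165, 11276, 9498 and 8982, Rgr, a light-sensitive opsin of these cells, 30978, 24493, 17118, 14160.0 and 12246, and Rdh5, a retinol dehydrogenase, 11955, 10754, 11352, 7001 and 4716. Sample 1 was the highest in the last 3 and sample 5 the lowest. The pigment list reached 649 ± 154 ppm, led by Dct (a melanin enzyme) at 16644, 10358, 15441, 10336 and 7693 scaled counts. Tyrp1, another melanin enzyme, had 3754, 1725, 992, 1264 and 1690.2, Pmel, the fibril protein of melanosomes, 909, 434, 284, 445 and 398, and Mlana 1759, 1145, 2123, 1534 and 1364. Gpnmb, the melanosomal glycoprotein whose working allele sets the strain apart, had 3190.1, 1837, 1409, 1645 and 1649 scaled counts and was present in each library. The ocular surface list reached 569, 247, 496, 358 and 245 ppm, with Aldh3a1, an aldehyde dehydrogenase abundant in cornea, at 7581, 2325, 8531, 4257 and 2556 scaled counts and Krt12, the keratin of corneal epithelium, at 7195, 2954, 7027, 3599.5 and 2633. Both were highest in samples 1 and 3. Krt5, a keratin of basal epithelium, had 2441, 1038, 1460.5, 1720.4 and 993 and Krt4 381, 147, 116, 169.7 and 58.4.

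Of the general lists, the ribosomal proteins reached 28831 ± 3888 ppm, with Rps25, Rpl41 and Rps27 among the leading genes, and the mitochondrially encoded genes 14254, 18853, 29729.7, 26737 and 36857 ppm. Of the mitochondrial sums, that of sample 1 was the lowest and sample 5 the highest, and mt-Co3, mt-Atp6, mt-Co2 and mt-Cytb led in level. The housekeeping list reached 9981 ± 857 ppm, with Ppia, Gapdh and Pgk1 among the leading genes. Actb, often used as a reference gene, was no steady one here, at 2788, 2252, 3726, 9399.8 and 6253 scaled counts, with samples 4 and 5 above samples 1 to 3. The immediate early list reached 359 ± 76.6 ppm, led by Ier2 at 82.7 ± 14.7 ppm and by Btg2, Dusp1 and Junb, and Fos had 294, 623, 423, 679 and 809 scaled counts. The heat shock list was the steadiest, at 637, 647, 626, 645 and 637 ppm. Its members varied more than its sum, since Hspa8, the constitutive chaperone, had 11513, 10627, 12419, 8882 and 10877 scaled counts and Hspb1, a small heat shock protein, 3050.2, 1923, 4148, 3669 and 1891. Dnajb1, a co-chaperone, had 3014, 2267, 2269, 1957 and 2264. Hspa1a, the inducible chaperone, had 1478, 2246, 1268, 1042 and 1144, although it cannot be told apart with confidence from its near copy Hspa1b.

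Spread between libraries was measured as the SD of log2(value + 1) over the 5 libraries. Over the 11770 protein-coding genes that averaged 5 CPM or more, the median SD was 0.37 log2 units, with 0.20 and 0.67 as the 10th and 90th percentiles. It was 0.32 without sample 3. In 190 genes (1.61%) the SD was above 1. The median was 0.69 for genes of 1 to 5 CPM and 0.34 for those of 100 to 1000 CPM, but 0.45 for the 77 genes of 1000 CPM or more. Among members averaging 5 CPM or more, the median SD was 1.28 for erythroid, 0.78 for ocular surface, 0.70 for astrocyte and 0.65 for lens genes. Of the vessel wall and matrix lists, it was 0.61 for basement membrane, 0.60 for pericyte, 0.55 for arterial and 0.52 for fibroblast genes. For venous genes it was 0.46, for pan-endothelial genes 0.40 and for smooth muscle genes 0.40. It was 0.44 for rod and 0.40 for Müller glial genes, and lowest for the housekeeping genes at 0.28.

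**Figure D4:**
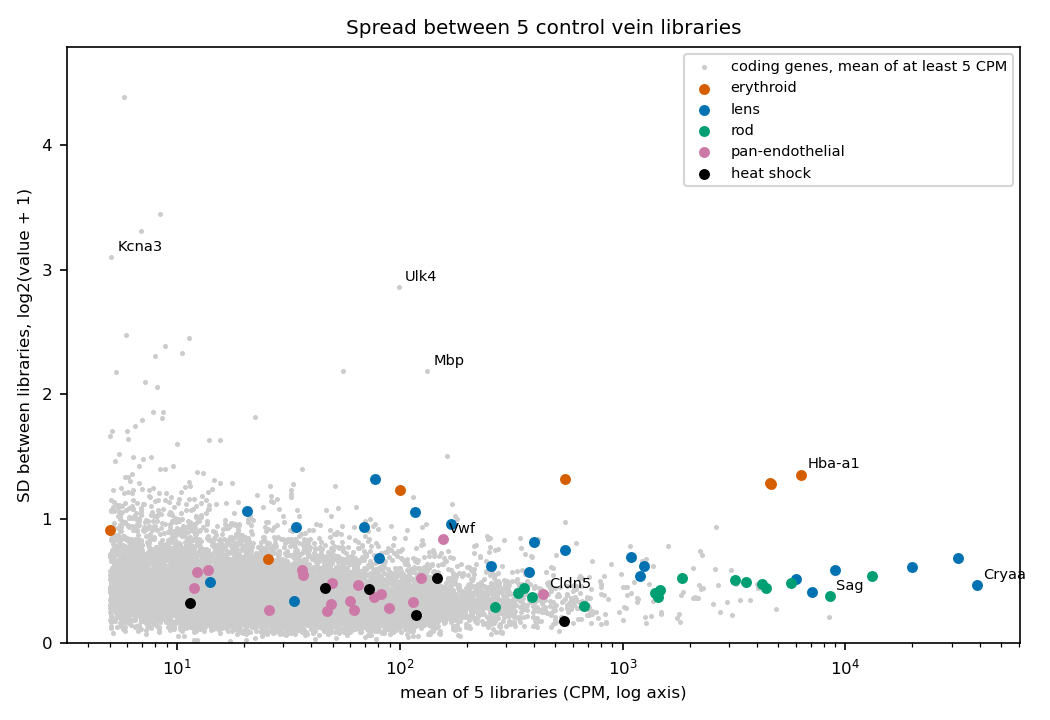
Mean of the 5 control libraries (CPM, log axis) against the SD of log2(value + 1) for 11770 protein-coding genes, with members of 5 lists in colour. Erythroid genes, such as Hba-a1 with an SD of 1.36, lie above most genes of like abundance, and Kcna3 and Ulk4 are among the most variable genes, below 3 predicted genes that carry no name in the plot.

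The ranking of the 10 most variable named genes changed when sample 3 was left out. No other library was left out of this ranking. Removing a library that holds the extreme value of a gene tends to lower its SD, so part of the change is built in. Ranked without sample 3, 4 of them stayed among the 10 most variable. These were Ulk4 at an SD of 2.74, Muc5ac at 2.57, Serpind1 at 2.51 and Gp2 at 2.36. How often sample 3 is the highest or lowest library over all coding genes was not counted. Kcna3, a potassium channel of lymphocytes and microglia, had 57.7, 122, 0, 47.01 and 254 scaled counts, and its SD of 3.10, which rested on the 0 in sample 3, was 1.10 without that library. R3hdml was high there at 206, 106, 5073, 432 and 188. Qser1 at 162, 277, 5.82, 358 and 196 and Pcdhga6 and Pcdhga11, clustered protocadherins that share exons, at 171, 112, 2.25, 62.7 and 225 and 64.4, 211, 4.74, 317 and 149 were low there. Mbp, given above, was also high in sample 3. Ulk4 (ENSMUSG00000040936.15), a kinase-like gene, differed in another way, with 144, 145, 3834, 5487 and 92.1 scaled counts, so that samples 3 and 4 were over 20 times the other 3. Muc5ac, the mucin of conjunctival goblet cells, had 528, 136, 423, 6.44 and 106 and Gp2 505, 43.996, 361, 9.12 and 33.9, both with samples 1 and 3 highest and sample 4 lowest. Serpind1, a thrombin inhibitor, had 135, 3.80, 72.96, 66.8 and 245, with sample 2 the lowest. At the steady end, Lurap1 had 337, 345, 346, 342 and 342, Ahsa2 407, 397, 393, 408 and 406 and Tigd5 236, 244, 237, 232 and 234. Ulk1, a kinase that starts autophagy, had 234, 246, 247, 243 and 243, Upp2 789.9, 812, 832, 821 and 834 and Mpv17, a mitochondrial inner membrane protein, 1576, 1503, 1572, 1498 and 1582.

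**Figure D5:**
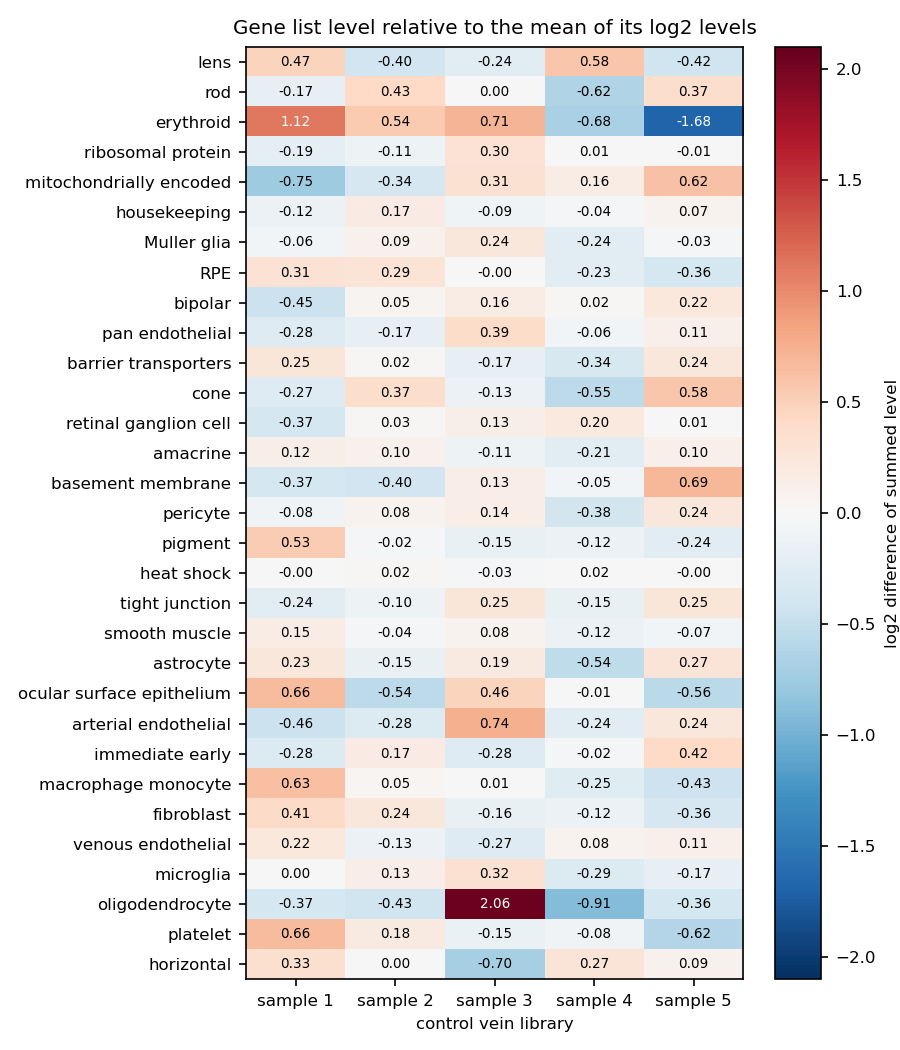
Log2 difference of the summed level of each list in a control library from the mean of its log2 levels over the 5 libraries, for the 31 lists with a member of at least 5 CPM. The oligodendrocyte list is at 2.06 in sample 3, the erythroid list at -1.68 in sample 5 and 1.12 in sample 1, and the heat shock list within 0.03 of its mean in each library.

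The labels give library numbers 28 and 30 to samples 4 and 5, and 16 to 18 to samples 1, 2 and 3. No gene of 26482 tested differed between the 2 sets at an adjusted p under 0.05 (limma, two-sided, Benjamini-Hochberg), so 0% was called. At an unadjusted p under 0.05 there were 1260 of the 26482 genes. This is under the 1 in 20 that such a limit passes where no gene differs. Under other settings the count fell on either side of that share. It was 1115 of 26482 genes with a pseudocount of 0.1, 1437 of 26545 scaled to a common total and 1813 of 25336 without sample 3. The p-values rest on the spread between libraries within this one group, in which mouse, dissection and library preparation cannot be told apart. No other tool was run on this comparison. Among genes chosen after their values were seen, Hba-a1 was 54293 and 26109.5 scaled counts in samples 4 and 5, against 227547, 127760.0 and 220310.0 in samples 1 to 3. Its log2 difference was -2.30 (SE 0.51, adjusted p = 0.883, limma). Actb was 9399.8 and 6253 scaled counts in samples 4 and 5, against 2788, 2252 and 3726 in samples 1 to 3, with a log2 difference of 1.42 (SE 0.32, adjusted p = 0.883, limma). Neither passed the threshold, and how many of all tested genes separate the 2 sets was not counted.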

How the data were processed

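Total RNA of 5 control retinal vein samples (about 100 pg each, with an integrity number above 9) was amplified with SMART-Seq v4, made into Nextera XT libraries and sequenced on an Aviti instrument, per the series design text. Quantification was with kallisto, and the design text gives GRCm38 and GENCODE M23 as its index. Sleuth and GRCm39 appear in the submitters' processing notes, and the build is therefore not settled. The deposited table gives 1 signal value per gene symbol, which from its values is an estimated count that the authors divided by a single number for each library. The origin of that number is not stated in any source used here. At a tolerance of 0.01, 19.2% to 21.9% of values in a library were whole reads, so no count model was run.

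Of 40149 symbols, 26 read as calendar dates and were left out (0.151% to 0.171% of a library). Of the other 40123 symbols, 39019 matched GENCODE M21 (GRCm38), which gave type, coordinates and the median length of coding transcripts. That length is poor for genes with many short isoforms, so the longest transcript and the union of exons were tried as well. limma 3.58.1 (trend, R 4.3.3) on log2(value + 1) compared library numbers 28 and 30 with 16 to 18 over genes that reached 1 in 3 libraries or more. On simulated data, limma recovered 74% of 4-fold and 100% of 16-fold changes, and 1.69% of its calls were false. The simulation used the same spread setting for every gene and no library that stood apart. It therefore cannot tell how many real differences were missed in these libraries. All else is description with Python 3.11.15 and pandas 2.3.3.

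The gene lists and the rule for named genes were chosen with earlier results of these data known. The rule took the 20 most abundant genes, up to 4 leading members of each list, the 10 most and 6 least variable autosomal coding genes of 5 CPM or more, and 30 fixed genes, with predicted genes and pseudogenes kept out of the abundance and spread rankings. Some genes that the rule took are not reported here. Further list members, such as Actb, Nid1 and Crygc, were named after their values were seen. Alternatives covered transcript length, the denominator, pseudocounts, filters, scaling and each library left out. Whether strand was used is not stated, so genes that overlap antisense to each other may share reads. Reads carry no molecular identifiers.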

Additional observations from a re-analysis of the deposited data

Results flagged for a closer look

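In a group of 5, a library was marked when its gap to the nearest other library was over 0.71 of the whole range, Dixon's 95% limit, which chance passes in about 1 of 20 groups. Of 33 lists, 2 were marked. The oligodendrocyte list was at 419 ppm in sample 3 and the pigment list at 918 ppm in sample 1.

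Of 161 named genes, 20 were marked, mostly by samples 1 and 3. These genes include the 10 most variable ones, so 1 in 20 is no baseline for them. Over all 11770 protein-coding genes averaging 5 CPM or more, 1099 (9.34%) were marked, 700 of them by sample 3. In scaled counts, sample 3 was the high library for the endothelial genes Cldn5 (13562), Ramp2 (3357) and Vwf (7285), the arterial and mural genes Mgp (6053) and Higd1b (828), and the secreted proteins Apoe (88765) and Cst3 (131822). It was also high for the rod gene Gngt1 (189786), the myelin genes Mbp (12590.5) and Mobp (403), R3hdml (5073), Ppia (85483) and Rpl41 (17368). Sample 1 was high for Gpnmb (3190.1), Pmel (909) and Tyrp1 (3754), which pigmented cells express, and for Gja1 (1986) and Slco1a4 (9384). Sample 4 was low for Vtn (8422), and sample 5 was high for Selp (2.82), a value of a few reads at most. Whether the length slope of sample 3 plays a part in its marks was not tested.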

How the results depend on the processing

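No paired analysis was possible because the 5 libraries form 1 group. With the longest transcript as length, the rod list averaged 30190 ppm and the Müller glia list 6055 ppm, and with the union of exons 32343 and 5280.1 ppm. The erythroid list then exceeded the rod list, at 44316 and 48043 ppm. Among the other lists, the longest transcript moved the barrier transporter and cone levels by over 1.5 times, to 734 and 609 ppm. The union of exons did so for the cone (658), tight junction (825), macrophage (421), neutrophil (36.4), platelet (15.1), ganglion cell (1521), ocular surface (659.6) and immediate early (564) lists. Taking the lens genes out of the total moved Müller glia to 9369.6 ppm. Taking lens, rod and erythroid genes out, an alternative added after the values were seen, gave 1617 ppm for the pan-endothelial, 10387 for the Müller glia and 62142 for the rod list. Ranked by level, the 10 and 100 leading genes held 21.3% and 42.3%. The median SD was 0.41 for genes of at least 1 CPM and 0.35 for at least 20 CPM, and 0.32 to 0.39 with each library left out, lowest without sample 3. Without sample 3, a choice made after the values were seen, 6 of the 10 most variable named genes had an SD of 0.50 to 1.10 and left that ranking. In the limma comparison, 1 gene passed with a pseudocount of 5 and 153 with no filter, where genes at 0 in most libraries enter, and 0 to 5 with each library left out, the 5 without sample 5. Under the other settings no gene passed. The lens and erythroid levels and the number of genes detected moved by less than 1 SD or 1.5 times under the settings run for them. Between 17774394 and 23437512 reads limit what can be said of genes such as Selp, Sele and Aplnr.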

Other observations

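Xist, the non-coding RNA of the inactive X chromosome, had 1406, 2577, 1473, 7543 and 4553 scaled counts in control samples 1 to 5, whereas Ddx3y, a Y-linked gene, reached at most 6.97. The labels give no sex for these mice. Cst3 and Ptgds, both secreted proteins found in ocular fluids, stood at 7981 ± 2038 and 5576 ± 977 ppm (SD, n = 5), more than the whole pan-endothelial list.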
